A study of Mus musculus with 10 samples.

Results

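The ErbB receptors and their EGF-family ligands were followed in bulk RNA-seq of mouse sarcomas. The 10 genes were chosen by name: the 4 receptors Egfr, Erbb2, Erbb3 and Erbb4 and the 6 ligands Ereg, Areg, Hbegf, Tgfa, Btc and Nrg1, found by symbol among the 56750 features of the deposited count table. All 10 were found, and all 10 were among the 24743 features that passed the filter on low counts. Of the filter's level of 0.165 CPM in 2 tumors, 9 members had met it in the dFLEx tumors alone, and Erbb4 met it in 1 tumor of each group. The tumors belonged to 2 groups. The dFLEx group held 3 tumors (170019, 170024 and 170025) of dFLEx CDS +/- mice, which carry a CIC::DUX4 transgene with an HA tag at Rosa26 under a CAG promoter; CIC::DUX4 sarcoma (CDS) is a small round cell tumor driven by this fusion. The transgene is silent until Cre and FLP have each turned an exon, and both recombinases were supplied as plasmids electroporated into hind limb muscle, so that the electroporated cells, of whatever type, are those that can recombine. The KP group held 2 sarcomas (3800 and 3802) of mice of the KP model, whose genotype includes p53fl/fl, floxed alleles for the loss of p53. The groups therefore differ in their driver alleles, the labels give no treatment and state neither age nor sex nor that the tumors of a group came from separate mice, so p-values measure the spread between these tumors.

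ErbB receptors are tyrosine kinases of the cell surface that pair after ligand binding and signal through RAS and ERK, PI3K and STAT proteins. EGFR binds amphiregulin (Areg), TGF-alpha (Tgfa), betacellulin (Btc), HB-EGF (Hbegf) and epiregulin (Ereg), neuregulins such as Nrg1 bind ERBB3 and ERBB4, and ERBB2 has no known ligand and serves as a partner of the other receptors. The ligands are made as membrane-anchored precursors that metalloproteases of the ADAM family shed, and ERK activity is known to raise the transcription of several of them, as well as of the feedback inhibitor Errfi1.

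RNA of each tumor had been divided into duplicate libraries, and 9 libraries were analysed, 6 of dFLEx and 3 of KP tumors, since 3802 entered with 1 library. Library totals ran from 20503474 to 46302223 counts, and duplicates were summed into a single profile for each tumor. The CIC_DUX4 transgene stood at 105, 202 and 423 CPM (counts scaled by TMM to a common library total, the unit of all levels below unless stated) in the dFLEx tumors, had no count in 3800 and had 6 counts in 3802. Tumor 3802 stood apart in its background. The 1547 olfactory and vomeronasal receptor genes, which muscle sarcomas are not known to use, gave 0.107 CPM per kilobase of exon there, against 0.00278 to 0.0239 in the other 4 tumors. For the members at 1 CPM or more in both duplicates (26 pairs of libraries) the duplicates differed by a median of 0.13 on the log2 scale and by at most 0.55.

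The EGFR ligands Ereg, Areg and Btc, abundant enough to be read with ease in both KP tumors, stood at no more than 0.453 CPM in each of the 3 dFLEx tumors. The receptor Erbb3 and the ligand Hbegf were also lower in every dFLEx tumor than in either KP tumor, Nrg1 was higher, and Egfr itself overlapped between the groups. In edgeR's quasi-likelihood test over all genes no member passed an adjusted p of 0.05 (0 of 10), where 0.182% of all tested genes passed. At an unadjusted p under 0.05 the members counted 5 of 10 lower in dFLEx (Erbb3, Ereg, Areg, Hbegf and Btc), against 4.93% of all genes, and 0 of 10 higher, against 5.65%. The levels of the groups did not overlap for 6 members with the lower level in dFLEx, against 11.7% of all genes, and for 1 member with the higher level, against 13.7%. The members were chosen with earlier results of these data known, so these counts are no test of the family. DESeq2 on the same tumor sums called 4 members (Erbb3, Ereg, Areg and Btc), where it called 6.25% of the genes with an adjusted p. Leaving out the KP tumor 3802 led edgeR to call 3 members (Ereg, Areg and Btc), with 1.64% of genes called, but this fit sets 3 dFLEx tumors against 3800 alone and assumes that 3800 varies as the dFLEx tumors do. Leaving out any other tumor led to no call among the members. In bulk tissue fewer cells of a kind that makes a transcript and less of it per cell cannot be told apart.

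**Figure D1:**
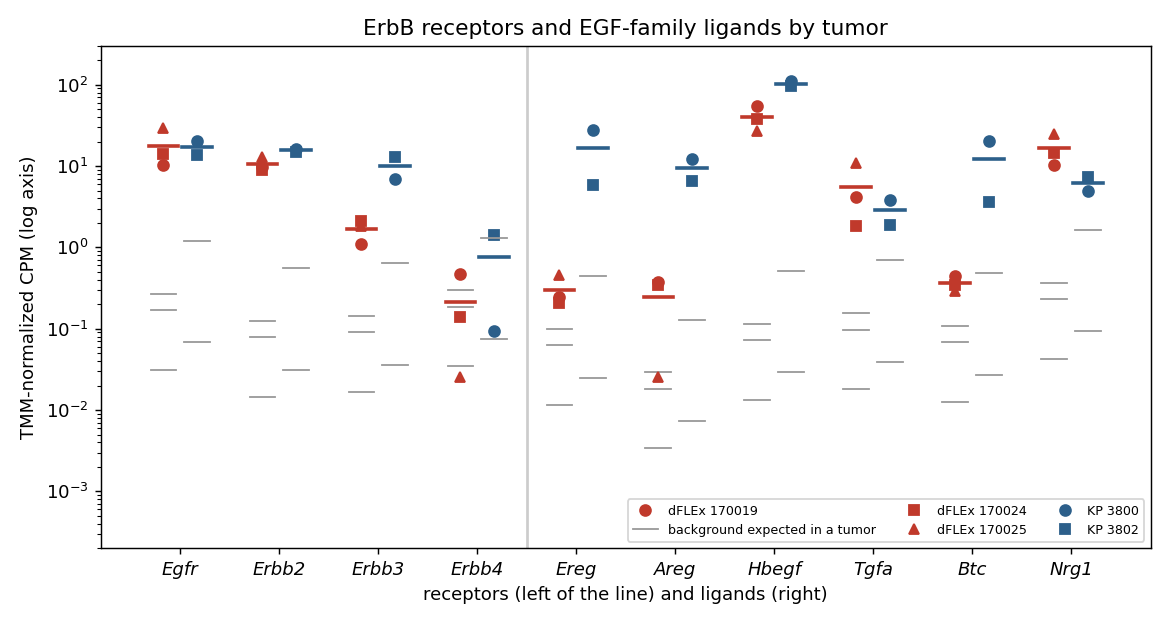
TMM-scaled CPM (log axis) of the 4 receptors and 6 ligands in each tumor, dFLEx in red and KP in blue, with the group mean as a thick line and the background expected for a gene of that exon length in each tumor as a thin grey line. The red and blue points of Ereg, Areg and Btc lie 7.99-fold or more apart at their closest, and those of Erbb4 lie on or near the grey lines.

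Among the receptors, Egfr (chromosome 11, 16702203 to 16868158, GRCm39), the receptor of the EGFR ligands above, stood at 10.2, 13.98 and 29.5 CPM in the dFLEx tumors and at 20.3 and 13.8 CPM in the KP tumors. The dFLEx values spanned those of KP, and the log2 fold change was 0.07 (SE 0.67, adjusted p = 0.988 in edgeR), with a sign that turned under several of the scalings and fits tried. Erbb2 (chromosome 11, 98303296 to 98328542), the receptor without a ligand, had the narrowest spread of all members. It stood at 9.78, 9.02 and 12.8 CPM in dFLEx and at 16.4 and 15.1 CPM in KP. Every dFLEx tumor lay below both KP tumors by TMM, median-of-ratios, library-total and upper-quartile scaling, whereas the groups overlapped per length, and the log2 fold change of -0.58, with an SE of 0.56 (edgeR, adjusted p = 0.869), was about as large as its error.

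Erbb3 (chromosome 10, 128403392 to 128425521), a neuregulin receptor whose kinase is weak and which signals through its partners, showed the clearest difference of the receptors. It stood at 1.09, 2.12 and 1.85 CPM in dFLEx and at 6.97 and 12.8 CPM in KP, so the highest dFLEx tumor lay 3.30-fold below the lowest KP tumor. The means were 1.69 ± 0.530 CPM (SD, n = 3) and 9.91 ± 4.15 CPM (SD, n = 2), and the log2 fold change was -2.55, with an SE of 0.66 (edgeR, adjusted p = 0.194). Erbb4 (chromosome 1, 68071345 to 69147218), the other neuregulin receptor, could not be told from background in any tumor. Its 0.473, 0.139 and 0.0252 CPM in dFLEx and 0.0940 and 1.42 CPM in KP compare with 0.296, 0.186, 0.0344, 0.0744 and 1.32 CPM that the background would give over its 12355 bases of exon, in the same order. The highest value, in 3802, therefore sat where the background of that tumor was highest, and the log2 fold change of Erbb4 was -1.83 with an SE of 1.66.

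The ligands Ereg, Areg and Btc showed the largest differences of the 10 members. Ereg (chromosome 5, 91222481 to 91241505), which encodes epiregulin, stood at 0.249, 0.208 and 0.453 CPM in the dFLEx tumors and at 28.0 and 5.77 CPM in the KP tumors. The closest tumors of the 2 groups were 12.7-fold apart, and the KP tumors themselves differed 4.85-fold. The log2 fold change was -5.78 (SE 0.91, adjusted p = 0.0744 in edgeR). The dFLEx values rest on 8 and 2, 6 and 6, and 26 and 10 counts in the paired libraries, against 831 and 1253 counts in 3800 and 142 counts in 3802. The 141 bases that Ereg shares with the antisense lncRNA gene Gm19610 could not be assigned to either.

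Areg (chromosome 5, 91287458 to 91296291), which encodes amphiregulin, stood at 0.373, 0.347 and 0.0252 CPM in dFLEx and at 12.2 and 6.50 CPM in KP. The gap between the closest tumors was 17.4-fold, the widest of any member, and the log2 fold change was -5.25 (SE 1.09, adjusted p = 0.120 in edgeR). In 170025 the paired libraries held 2 and 0 counts, and a count of 0 allows up to 0.0837 CPM in that library. Btc (chromosome 5, 91505120 to 91550853), which encodes betacellulin, stood at 0.448, 0.347 and 0.290 CPM in dFLEx and at 20.6 and 3.58 CPM in KP. Its dFLEx tumors lay within 1.55-fold while its KP tumors differed 5.77-fold, and the log2 fold change was -5.07 (SE 0.90, adjusted p = 0.0894 in edgeR). In both Ereg and Btc the KP tumor 3800 carried the higher level, and without it the log2 fold changes were -4.06 for Ereg and -3.14 for Btc. Background would supply 39.7%, 29.9% and 2.53% of the Ereg level in 170019, 170024 and 170025. For Btc the shares were 24.2%, 19.6% and 4.34%, and for Areg 7.79%, 5.28% and 13.4%, in the same order.

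RefSeq promoter windows (GRCm38.p6, from 250 bases before to 50 after the start of transcription) were at hand for 6 members, Egfr, Erbb2, Erbb4, Areg, Tgfa and Btc. The letters bound by CIC, whose DNA-binding part the fusion keeps, were searched as TGAATGAA, TGAATGGA, TCAATGAA and TCAATGGA on both strands. None of the 6 windows held a match, as 3.84% of all 32851 windows did, and no match says only that these letters are not in these windows. The windows of the 3 ligand genes are shown because, among the members with a window, Areg and Btc differed most between the groups while Tgfa, whose protein binds the same receptor, did not separate them. Capitals mark a cAMP response element (TGACGTCA), a TATA box (TATAAA, sense strand) and GC boxes (GGGCGG on either strand), letters chosen after the sequences were seen. These occur in 1.79%, 8.32% and 35.7% of all windows, and the Btc window holds none of them. Areg lies at chr5:91139349-91139648 on the plus strand, Btc at chr5:91402945-91403244 on the minus strand and Tgfa at chr6:86194972-86195271 on the plus strand.
Areg: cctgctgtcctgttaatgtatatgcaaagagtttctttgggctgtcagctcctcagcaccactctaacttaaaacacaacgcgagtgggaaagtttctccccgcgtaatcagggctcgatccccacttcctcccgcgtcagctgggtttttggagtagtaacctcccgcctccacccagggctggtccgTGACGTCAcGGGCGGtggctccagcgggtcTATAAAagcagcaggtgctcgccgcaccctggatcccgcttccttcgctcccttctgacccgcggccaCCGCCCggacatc
Btc: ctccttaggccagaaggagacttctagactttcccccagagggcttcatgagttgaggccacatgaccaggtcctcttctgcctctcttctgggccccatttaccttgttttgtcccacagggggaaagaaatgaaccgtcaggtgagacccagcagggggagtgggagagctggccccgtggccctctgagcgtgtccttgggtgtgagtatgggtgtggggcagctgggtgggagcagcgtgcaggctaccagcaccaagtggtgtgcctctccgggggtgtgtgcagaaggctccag
Tgfa: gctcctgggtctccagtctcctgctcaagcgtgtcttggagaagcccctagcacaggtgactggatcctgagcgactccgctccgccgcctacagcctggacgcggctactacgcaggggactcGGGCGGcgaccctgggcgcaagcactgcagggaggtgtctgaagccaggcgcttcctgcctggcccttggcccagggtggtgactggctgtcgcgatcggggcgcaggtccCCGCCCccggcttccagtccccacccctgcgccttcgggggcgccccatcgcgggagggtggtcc
The response element, a GC box and the TATA box of Areg stand 61, 52 and 31 bases before its start.

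Hbegf (chromosome 18, 36637980 to 36648858), which encodes HB-EGF, was the most abundant ligand in every tumor. It stood at 55.1, 38.1 and 27.2 CPM in dFLEx and at 111 and 96.2 CPM in KP. The groups did not overlap, with 1.75-fold between the closest tumors, and the log2 fold change was -1.37 (SE 0.56, adjusted p = 0.438 in edgeR). Tgfa (chromosome 6, 86172205 to 86252701), which encodes TGF-alpha, stood at 4.13, 1.86 and 10.8 CPM in dFLEx and at 3.87 and 1.87 CPM in KP. The groups overlapped, as 170024 lay just below 3802 while 170019 and 170025 lay above both KP tumors. The dFLEx tumors ranged over 5.82-fold (log2 fold change 0.96, SE 0.88, adjusted p = 0.863 in edgeR). The log2 fold change was 0.055 without 170025, 0.55 without 3802 and 1.76 without 3800. Background would supply 37.0% of the Tgfa level in 3802.

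Nrg1 (chromosome 8, 32304579 to 33374825), a neuregulin that muscle, nerve and vessel cells are known to make, was the only member whose dFLEx tumors all lay above the KP tumors. It stood at 10.2, 14.4 and 24.9 CPM in dFLEx and at 4.97 and 7.27 CPM in KP, 1.40-fold apart at the closest. The log2 fold change was 1.43 (SE 0.67, adjusted p = 0.537 in edgeR). With library totals in place of TMM the groups overlapped for Nrg1. That scaling moved the median log2 fold change of all tested genes from -0.18 to -0.47. Background would supply 22.6% of the Nrg1 level in 3802.

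**Figure D2:**
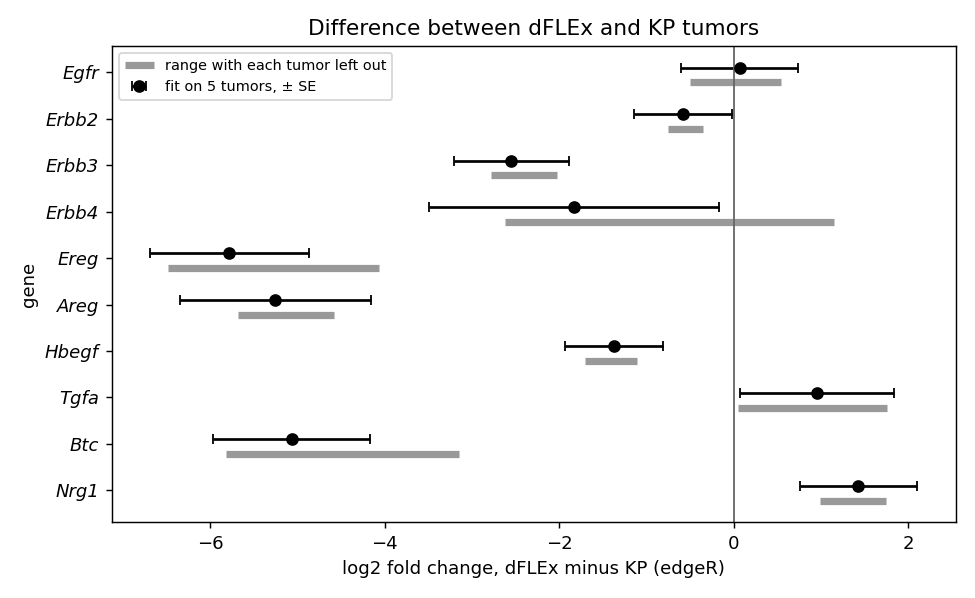
Log2 fold change (dFLEx minus KP) of each member from edgeR on 5 tumors with its SE (black), and the range over fits that leave out each tumor in turn (grey). Ereg, Areg and Btc lie below -3 in every fit shown, Erbb3 and Hbegf stay below 0, Nrg1 stays above 0, and Egfr and Erbb4 cross 0; Erbb4 was tested in 4 of the 5 reduced fits.

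Levels of different genes were then set against each other per length, as TPM (counts divided by exon length and scaled to the same total in every tumor). Hbegf made up 86.6%, 82.8% and 61.9% of the summed level of the 6 ligands in the dFLEx tumors and 50.7% and 70.6% in the KP tumors, shares that overlapped. Ereg, Areg and Btc together made up 3.55%, 4.34% and 2.14% in dFLEx and 47.3% and 26.7% in KP. Nrg1 took 5.01%, 9.81% and 17.7% in dFLEx and 0.713% and 1.67% in KP. The share of Tgfa was likewise higher in each dFLEx tumor, at 4.84%, 3.01% and 18.3% against 1.32% and 1.02%. With 3 tumors against 2 there are 10 splits. The exact two-sided permutation test over tumors used here doubles the smaller tail and cannot go below p = 0.2. This is the value it gave for the shares of Ereg, Areg, Btc, Nrg1 and Tgfa. The summed level of the 6 ligands itself was 23.2, 22.1 and 28.8 TPM in dFLEx and 154 and 65.1 in KP.

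Among the receptors, Erbb2 and Egfr were the most abundant per length in all 3 dFLEx tumors. Erbb2 stood at 3.31, 4.01 and 7.78 TPM and Egfr at 1.59, 2.86 and 8.23, and these ranges overlapped. In KP tumor 3802, Erbb3 (4.93 TPM) exceeded Egfr (2.82 TPM). Erbb3 made up 6.07%, 10.6% and 5.73% of the summed receptor level in dFLEx and 19.0% and 33.5% in KP (exact permutation p = 0.2, the smallest this form of the test can give here). The share of Egfr was 30.0%, 37.1% and 48.4% in dFLEx and 29.3% and 19.2% in KP, so 170019 and 3800 were nearly level.

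**Figure D3:**
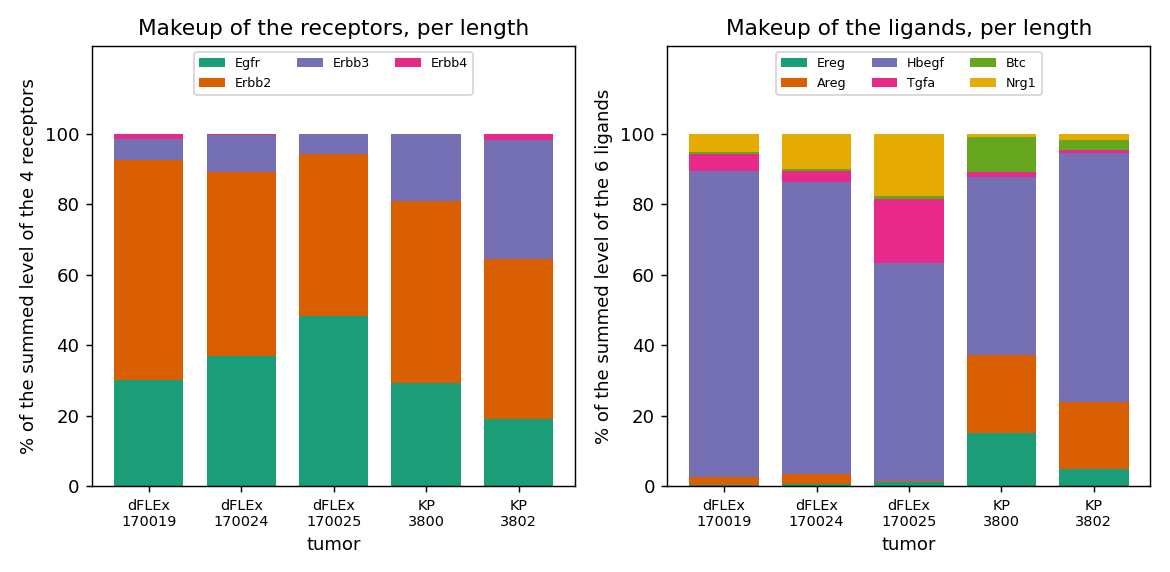
Stacked bars of each tumor's summed per-length level, in percent, divided among the 4 receptors (left) and the 6 ligands (right). Erbb3 is a larger part of the receptors in both KP bars than in any dFLEx bar, and Ereg, Areg and Btc together are 26.7% and 47.3% of the ligands in KP and at most 4.34% in dFLEx.

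The 3 ligand genes with the largest differences are neighbours. Epgn, which encodes epigen, a further EGFR ligand, and Ereg, Areg and Btc lie in this order within 376 kb of chromosome 5 (91175323 to 91550853). Epgn stood at 0.0746, 0.0694 and 0.0378 CPM in dFLEx and at 0.376 and 0.406 CPM in KP, and its log2 fold change was -2.66 with an SE of 1.53 (edgeR, adjusted p = 0.672). Its dFLEx levels rest on few counts, as 3 counts in a library equal 0.0648 to 0.146 CPM. Epgn has 1807 bases of exon, and at 0.107 CPM per kilobase background would supply part of its level in 3802. The genes within 500 kb on either side were looked up after the ligand values were seen. Of the 11 other protein-coding genes tested there, 9 had a negative and 2 a positive log2 fold change, with a median of -0.56, and the groups did not overlap for 5, all with the lower level in dFLEx (11.7% of all genes tested). Mthfd2l, the nearest tested coding neighbour on the Epgn side and an enzyme of folate metabolism, stood at 19.3, 12.2 and 16.8 CPM in dFLEx and at 31.0 and 9.14 CPM in KP. Parm1, the nearest on the Btc side, stood at 1.69, 8.76 and 8.83 CPM in dFLEx and at 1.96 and 8.78 CPM in KP. Both flanking genes overlapped between the groups. The lowest of the 11 was Cxcl3, a neutrophil chemokine, at 0.249, 0.277 and 0.453 CPM in dFLEx and at 0.457 and 10.5 CPM in KP, so that 3802 alone stood clear of the dFLEx tumors.

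**Figure D4:**
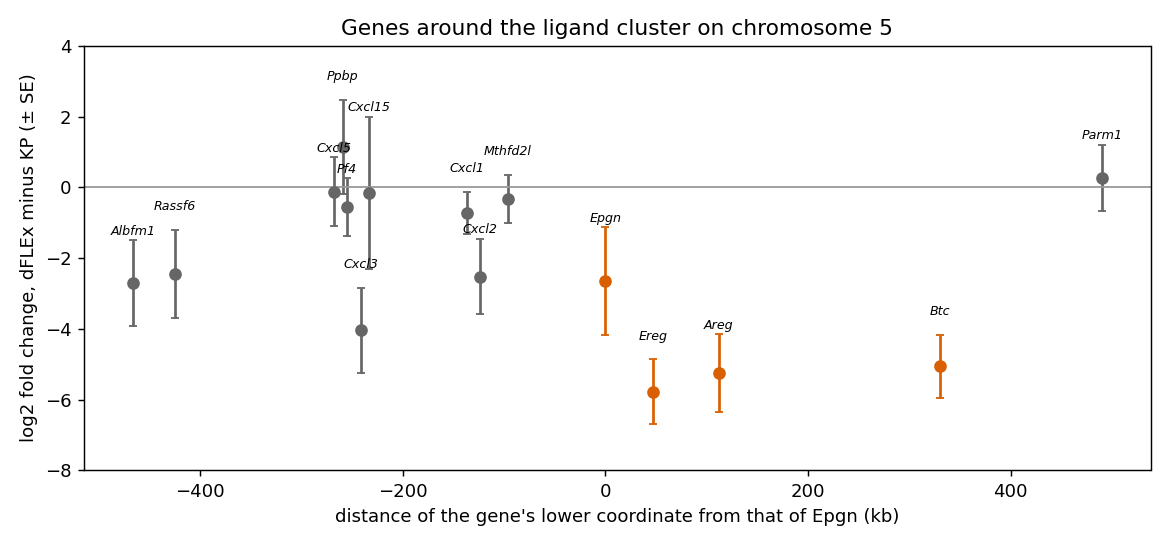
Log2 fold change (dFLEx minus KP, with SE) of the protein-coding genes tested around the ligand cluster on chromosome 5 against their distance from Epgn in kb. Epgn, Ereg, Areg and Btc are orange, and the last 3 of them lie below every grey neighbour.

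The wider pathway was read from lists of genes. None of the other 5 EGF-family ligands (Egf, Epgn, Nrg2, Nrg3 and Nrg4) passed the edgeR test at an adjusted p of 0.05, and their median log2 fold change was -1.22, beside -0.18 over all tested genes. That median was the value of Nrg4, whose groups overlapped. Nrg4 stood at 0.473, 0.399 and 0.529 CPM in dFLEx and at 0.363 (3800) and 1.83 CPM (3802) in KP. The highest mean per length over the 5 tumors was that of Nrg2, a neuregulin, at 2.36, 1.18 and 0.365 CPM in dFLEx and 0.833 and 2.28 CPM in KP, which overlapped.

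None of the 10 sheddases and partners passed in edgeR (median log2 fold change -0.59). DESeq2 on tumor sums called 1 of them, Adam8, where it called 6.25% of the genes with an adjusted p. The protease gene Adam8, active in myeloid cells, stood at 6.77, 5.84 and 14.8 CPM in dFLEx and at 91.6 and 15.8 CPM in KP (log2 fold change -2.55, SE 0.84, adjusted p = 0.309 in edgeR and 0.0408 in DESeq2). Without 3800 its log2 fold change was -0.62. Rhbdl2, a rhomboid protease of the cell surface, was at 22.3, 13.3 and 21.5 CPM in dFLEx and at 6.37 and 2.24 CPM in KP (log2 fold change 2.14, SE 0.73, adjusted p = 0.326 in edgeR), and without 3800 its log2 fold change was 3.25. The protease Adam10, which sheds Btc among other substrates and had the highest mean per length of the list over the 5 tumors, ranged from 34.0 to 129 CPM in dFLEx and stood at 172 and 44.4 CPM in KP, while Adam17, the chief sheddase of Areg, Ereg, Hbegf and Tgfa, ranged from 14.98 to 68.6 CPM in dFLEx and stood at 102 and 16.0 CPM in KP. Both overlapped between the groups.

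None of the 12 inhibitors and turnover genes passed in edgeR (median log2 fold change -0.20). DESeq2 on tumor sums called 1 of them, Errfi1, where it called 6.25% of the genes with an adjusted p. Limma-voom also called Errfi1 alone, where it called 543 of 19538 tested genes. The groups did not overlap for 2 of the 12, both lower in dFLEx, where 11.7% of all tested genes were. Errfi1, a feedback inhibitor that binds the receptor kinases and that had the highest mean per length of this list over the 5 tumors, stood at 27.4, 41.8 and 49.4 CPM in dFLEx and at 387 and 88.6 CPM in KP (log2 fold change -2.59, SE 0.72, adjusted p = 0.219 in edgeR, 0.0168 in DESeq2 and 0.0296 in limma-voom). Lrig1, a membrane protein that promotes receptor degradation, stood at 5.00, 20.4 and 28.6 CPM in dFLEx and at 127 and 30.1 CPM in KP (log2 fold change -2.12, SE 0.88, adjusted p = 0.447 in edgeR). For both genes 3800 was far above 3802. Dropping 3800 left Lrig1 at a log2 fold change of -0.57 and Errfi1 at -0.997.

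None of the 5 co-receptors and ligand partners passed in edgeR, DESeq2 on tumor sums or limma-voom (median log2 fold change -1.45). Cd9, a tetraspanin that associates with the HB-EGF precursor and that had the highest mean per length of the list over the 5 tumors, stood at 84.8, 69.3 and 39.1 CPM in dFLEx and at 237 and 115 CPM in KP. Cd44, a hyaluronan receptor that presents HB-EGF, stood at 186, 101 and 178 CPM in dFLEx and at 568 and 279 CPM in KP. For these 2 of the 5 genes the groups did not overlap, with the lower level in dFLEx, where 11.7% of all tested genes were. Their log2 fold changes of -1.45 (SE 0.61, Cd9) and -1.45 (SE 0.58, Cd44) each became -0.68 once 3800 was dropped.

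Of the 12 adaptors and effectors 11 were tested and none passed in edgeR (median log2 fold change -0.16); Grb7, an adaptor, had at most 0.0806 CPM. Pik3ca, a catalytic subunit of PI3K, stood at 30.6, 55.5 and 63.8 CPM in dFLEx and at 161 and 74.0 CPM in KP, with a log2 fold change of -1.24 that was -0.40 without 3800. Stat5b, a transcription factor, stood at 28.9, 83.8 and 66.3 CPM in dFLEx and at 26.2 and 19.2 CPM in KP. Gab1, a docking protein, was at 29.4, 41.0 and 78.3 CPM in dFLEx and at 29.4 and 13.3 CPM in KP, so 170019 and 3800 were level, and its log2 fold change of 1.21 became 0.72 without 170025, 0.77 without 3802 and 2.07 without 3800. Grb2, the adaptor that links receptors to RAS and had the highest mean per length of the list over the 5 tumors, overlapped between the groups.

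**Figure D5:**
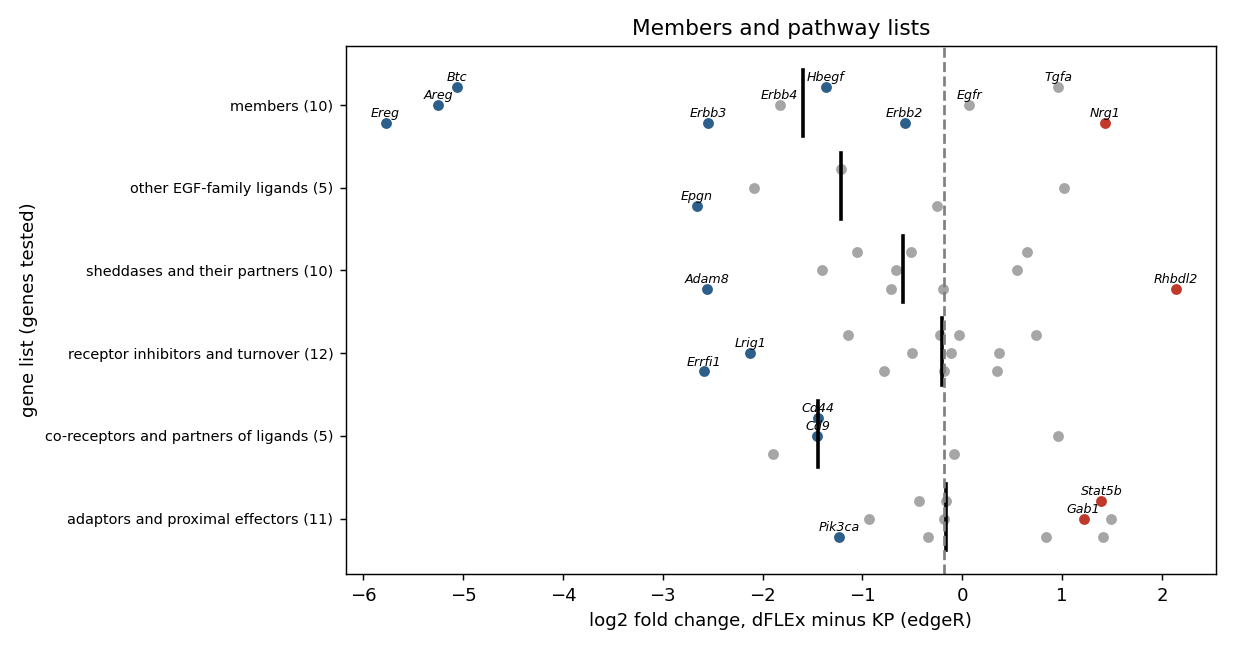
Log2 fold change (dFLEx minus KP) of the members and of the tested genes of the 5 pathway lists, blue where every dFLEx tumor was below both KP tumors, red where every one was above and grey where the groups overlapped. Thick lines are list medians and the dashed line is the median of all tested genes, -0.18; the members reach furthest to the left.

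Markers of cell types that could carry these transcripts differed between the groups for some genes and overlapped for others. Their part in the results was not tested. Over all tested genes, 11.7% had every dFLEx tumor below both KP tumors and 13.7% had every one above. Of the 7 epithelial markers, 4 had their dFLEx levels below both KP tumors (Epcam, Cdh1, Krt8 and Krt18) and 0 above. Their summed level was 4.70 to 15.5 CPM in dFLEx and 212 to 343 CPM in KP. In KP most of it came from the keratin genes Krt8 and Krt18, which passed the edgeR test (adjusted p = 0.0480 and 0.0335). Epcam, the surface marker of epithelia, was at most 3.75 CPM in any tumor, and Cdh1 at most 12.4 CPM. The basal keratin genes Krt5 and Krt14 stood at 0.282 and 0.0134 CPM in 3800, at 6.14 and 7.23 CPM in 3802, and at 0.0630 to 3.23 CPM in dFLEx. Of the 6 macrophage markers, 4 were lower in every dFLEx tumor (sums of 551 to 751 CPM in dFLEx and 1220 to 4015 CPM in KP). The 6 T cell and innate lymphoid markers summed to 6.31 to 9.88 CPM in dFLEx and to 10.7 and 48.4 CPM in KP, with 3 of 6 lower without overlap. The 4 mast cell markers summed to 43.3 to 64.9 CPM in dFLEx and to 28.6 and 74.3 CPM in KP, with 1 lower and 1 higher without overlap.

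Beside Erbb3 and Nrg1, the 6 Schwann cell and nerve markers summed to 47.1 to 93.5 CPM in dFLEx and 17.7 to 23.2 CPM in KP, with 3 of 6 higher in every dFLEx tumor. The 4 endothelial markers summed to 147 to 466 CPM in dFLEx and 57.3 to 115 CPM in KP, with 1 of 4 higher without overlap (Pecam1). The 5 fibroblast markers summed to 2537 to 8800 CPM in dFLEx and 1618 to 2427 CPM in KP, with 2 of 5 higher. The 7 myocyte markers summed to 9130 to 33711 CPM in dFLEx and 1531 to 5066 CPM in KP, with 5 of 7 higher in every dFLEx tumor. Beside these counts, 13.7% of all tested genes were higher in every dFLEx tumor. No marker of these lists was without counts in any tumor.

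The genes whose levels over the 5 tumors were most like those of Erbb2, the receptor with the highest mean per length over the 5 tumors, were Rbm15, Gapvd1 and Atp13a1, with root mean square differences of centred log2 levels of 0.07, 0.07 and 0.07 among 15263 genes compared. Those most like Hbegf were Htra1, Il18 and Gm7901, with differences of 0.09, 0.12 and 0.14. Htra1, a secreted serine protease, stood at 167, 135 and 81.4 CPM in dFLEx and at 370 and 311 CPM in KP, and Il18, a cytokine, at 2.96, 2.44 and 1.60 CPM in dFLEx and at 6.27 and 4.84 CPM in KP. Both were picked for their likeness to Hbegf over these 5 tumors, so that they repeat its order is no separate result.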

How the data were processed

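The authors trimmed reads with Trimmomatic (0.39), aligned them with STAR (2.7.10a) to mm39 extended by the fusion construct, and counted reads over genes with featureCounts (2.0.3). The deposited values are these whole-number counts, not normalized. Per the file headers the counting ignored strand and was not set to count pairs, so mates count separately, and limits given for a count of 0 cover counting error only. Reads with several alignments or over several genes were left out by default. Symbols came from GENCODE M39 (56017 features matched), coordinates from the deposited table. Nrg1 has a further feature of the same symbol, without counts, which was not used.

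Duplicates were summed per tumor, filtered with filterByExpr, scaled by TMM and compared with edgeR (4.0.16; glmQLFit, glmQLFTest, Benjamini-Hochberg over all tested genes, threshold 0.05, log2 fold changes as dFLEx minus KP). An SE was taken as the size of a log2 fold change over the root of its F statistic. Exact permutation tests used SciPy (1.17.1). The scripts were tested on simulated data with a smaller spread between tumors than here. The common biological coefficient of variation of these tumors was 0.863. That test therefore does not show how well the fit performs at this spread. At these totals 3 counts equal 0.0648 to 0.146 CPM per library.

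The study used DESeq2, and how it entered duplicates is not given in the sources used here. Alternatives were DESeq2 (1.42.0) and limma-voom (3.58.1), libraries as independent samples, other scalings and filters, subtraction of background, and leaving out each tumor. Expected background is the CPM per kilobase of the chemoreceptor genes times exon length. Named besides the 10 members are genes of the pathway lists that passed the test, or whose groups did not overlap with an absolute log2 fold change of at least 1, the gene of each list with the highest mean per length over the 5 tumors, and the 3 genes most like Erbb2 and Hbegf among those with a mean of at least 1 CPM. Adam17, Grb7, the values of Nrg4, the marker genes and the chromosome 5 neighbours were named after their values were seen. The members and lists were chosen with earlier results of these data known. RefSeq promoter windows matched 6 of 10 members. Part of the KP genotype is not reported here.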

Additional observations from a re-analysis of the deposited data

How the results depend on the processing

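The count of genes called by edgeR on tumor sums (45, of which 0 were members) depended on the tool and on the unit of replication. DESeq2 on tumor sums called 1396 genes, 6.25% of the 22335 with an adjusted p, and 4 of 10 members. Taking the 9 libraries as independent samples treats duplicates of the same RNA as replicates. DESeq2 then called 4828 of 43490 genes with a p-value and 7 of 10 members. In edgeR the calls were 3344 of 19538 tested genes and 6 of 9 tested members. The labels number the duplicates alike in all tumors. Differences between duplicates were nearly uncorrelated between the tumors other than 3802, which has a single library (correlations from -0.0083 to 0.0716). Whether libraries with the same number share more than that number was not tested. With the duplicate number as a replicate block, edgeR on 9 libraries called 2476 of 19538 tested genes and 5 of 9 tested members (Egfr -0.070). Limma-voom with tumor as random effect called 543 of 19538 tested genes and 0 members. Without a filter on low counts, edgeR on tumor sums called 880 of 44382 genes and 3 members. A mean of at least 1 CPM gave 80 of 15364 genes and 1 member, and upper-quartile scaling 50 of 24743 genes and 1 member (Ereg in both). Leaving out each tumor gave 0 to 414 genes and 0 to 3 members. The genes called were 0 without 170019 or 170024, 9 without 170025, 8 without 3800 and 414 without 3802; without 3800 or 3802 the KP group is a single tumor, assumed to vary like the others. The cause of these differences was not tested. The median log2 fold change of all tested genes, -0.18 in the main fit, was -0.47 with library totals and -0.34 with the upper quartile.

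The log2 fold changes of Erbb2, Erbb3, Ereg, Areg, Hbegf, Btc, Nrg1 and Tgfa kept their sign in all 17 alternatives. That of Ereg ran from -6.49 to -4.06, of Areg from -5.87 to -4.57, of Btc from -5.82 to -3.14 and of Erbb3 from -2.93 to -2.03, and the adjusted p-values of these 4 reached at most 0.226, 0.331, 0.327 and 0.608. That of Tgfa ran from 0.055 without 170025 to 1.76 without 3800, and that of Erbb2 was -0.35 without 3800. That of Egfr, near 0, became -0.11 with DESeq2 on 9 libraries, -0.014 with DESeq2 size factors, -0.070 with edgeR on 9 libraries, -0.071 with the first library of each tumor, -0.18 with library totals, -0.032 with limma-voom, -0.10 with a mean of at least 1 CPM and -0.17 with the upper quartile, and ranged from -0.50 to 0.55 when tumors were left out. Under the same omissions Erbb4 ranged from -2.62 to 1.15, Nrg2 from -1.07 to 0.66, Adam10 from -1.52 to 0.79 and Grb2 from -0.67 to 0.27. Erbb4 did not pass the filter in 7 alternatives. Depth limits Ereg, Areg, Btc and Erbb4 in the dFLEx tumors, where their levels rest on few counts.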
